A study of Mus musculus with 20 samples.

Results

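Collagens are the main structural proteins of the extracellular matrix, and the genes described here are all those of the mouse whose symbol is Col, a number, the letter a and a number with nothing after it. The rule used names only, and it found 44 genes among the 49585 with counts, each matched to 1 Ensembl gene. The family itself was chosen with earlier results of these data known. RNA was sequenced from whole ovaries of B6D2F1 mice, in 20 libraries. The Figla set held 3 knockout and 3 control libraries from newborns on postnatal day 0 (P0), and 4 knockout and 4 control libraries from embryonic day 18.5 (E18.5). The Lhx8 set held 3 knockout and 3 control libraries from P0. FIGLA and LHX8 are transcription factors of the oocyte, and the study asked which ovarian genes change when either is lost. The genotype labels are Figla-/- and Lhx8-/- for knockouts and Figla+/- and Lhx8+/- for controls, but the names of the Lhx8 control libraries call them WT, so they are called controls here. The sources used here do not say whether a library came from 1 animal or a pool, or from which litter, so a p-value here weighs a difference against how much these samples vary, and part of that variation may be technical.

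The labels conflict, and every group here was taken from the library name. Title and genotype label went against the library name in 6 of 14 Figla libraries and in 6 of 6 Lhx8 libraries. Figla transcripts stood at 0.218, 0.76 and 0.358 RPKM (counts scaled to TMM-adjusted library size and divided by kilobases of exon) in the P0 libraries named Figla knockout, against 39.1, 43.9 and 49.5 RPKM in those named control. At E18.5 they stood at 0.988, 1.5 and 1.83 RPKM in samples named knockout, against 26.1, 4.51 and 31.8 RPKM in samples named control, so control 3 stood apart from the other E18.5 controls. Control 3 was also low for other oocyte genes, at 2.44 RPKM of Lhx8 and 1.02 RPKM of Nobox, against 37.1 and 46.7 RPKM of Lhx8 and 36.6 and 53.7 RPKM of Nobox in the other E18.5 control samples; E18.5 knockouts had 2.6 to 17.3 RPKM of Lhx8 and 0 to 0.156 RPKM of Nobox. The library labelled E18.5 control 3 was therefore low for a control in these genes, yet it lay above every E18.5 knockout in Figla and Nobox. In Lhx8 it lay under every E18.5 knockout. Each main count of calls that compares E18.5 controls is also given without control 3, but counts under alternative settings are not. Lhx8 stood at 16.9, 30.4 and 23.6 CPM (library-size-scaled counts) in libraries named Lhx8 knockout, against 93.6, 103 and 90.2 CPM in those named WT; these libraries read the 3′ end, the deleted part of the gene is not given in the sources used here, and this level may therefore not check the label. Nobox stood at 5.25, 26.8 and 14 CPM in libraries named Lhx8 knockout, against 159, 186 and 154 CPM in those named WT. The germ cell gene Ddx4 stood at 28.3, 40.1 and 31.1 CPM in libraries named Lhx8 knockout, against 62.8, 69.7 and 58.3 CPM in those named WT. Dazl, another germ cell gene, overlapped between these groups. Grouping the Lhx8 libraries by title would turn every sign of the Lhx8 comparison. Libraries held 5583392 to 13408022 counts in the Figla set and 8297204 to 9978350 in the Lhx8 set. Replicates 1 and 2 of each E18.5 group differed by little more than sampling noise and were summed into 1 sample, called 1-2, which leaves 3 samples in each group.

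A collagen molecule is a triple helix of chains, and each chain has its own gene. Fibrillar collagens (types I, II, III, V, XI, XXIV and XXVII) pack into the banded fibrils that give connective tissue its tensile strength, FACIT collagens (types IX, XII, XIV, XVI, XIX, XX and XXII) sit on fibril surfaces or at tissue junctions, type VI forms beaded microfilaments around cells, and type IV builds the mesh inside basement membranes. In the ovary, fibroblast-like stromal cells are the main makers of fibrils, while basement membranes lie under the surface epithelium, around vessels, and around the germ cell cysts and follicles in which oocytes grow.

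In Figla control ovaries the collagen message was concentrated in a few genes. Over the 6 control samples of both ages, the 10 genes with the highest mean level carried 84.4% of the summed collagen RPKM, and 10 genes had a mean under 1 RPKM. Col3a1, the only chain of type III collagen, had the highest mean, 233 RPKM (193 to 291), and Col1a1, which gives the main chain of type I collagen, followed at 232 RPKM with a far wider range of 72.4 to 392. Then came Col6a1 at 166 RPKM, Col4a1 at 109, Col6a2 at 92.5, Col1a2 at 86, Col4a2 at 80.2, Col18a1 at 72.7, Col5a1 at 48.2 and Col6a3 at 30.9 RPKM. The ranges of neighbours in this order overlapped throughout, so the order describes these samples and does not separate neighbours. At the low end, Col22a1 averaged 0.31 RPKM (0.19 to 0.372) and Col9a1 0.0326 RPKM (0 to 0.0676). Col9a1 had 41 counts in all, in 14 of the 20 libraries, and was tested in no comparison; Col19a1, with 192 counts in all, was not tested in the knockout comparisons of the Figla set.

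At P0, more collagen genes were higher in Figla knockout ovaries than lower. Of 42 collagen genes tested, 16 were higher and 2 lower at an adjusted p below 0.05 (edgeR quasi-likelihood test, Benjamini-Hochberg over all 17321 genes tested). The shares among all genes tested were 5.12% higher and 10.9% lower. The median log2 fold change of the 42 genes was 0.42, against 0.02 over all genes tested, and 36 of the 42 were positive; with samples scaled to equal levels of stroma marker genes, the medians were -0.02 for collagens and -0.42 for all genes, 20 of 42 collagens were positive, and 2 were called higher and 5 lower. All 3 knockout samples lay above all 3 controls for 22 collagen genes and under them for 2, where 15.2% and 20.4% of all genes tested did so. Without knockout replicate 2 the test called 7 collagen genes (6 higher, 1 lower), and without knockout replicate 3 it also called 7 (6 higher, 1 lower). In 1 model of all Figla samples it called 3 (Col5a2 and Col22a1 higher, Col24a1 lower), and with only the libraries whose labels agree it called 6 (Col5a1, Col5a2, Col6a3, Col15a1 and Col22a1 higher, Col24a1 lower).

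**Figure D1:**
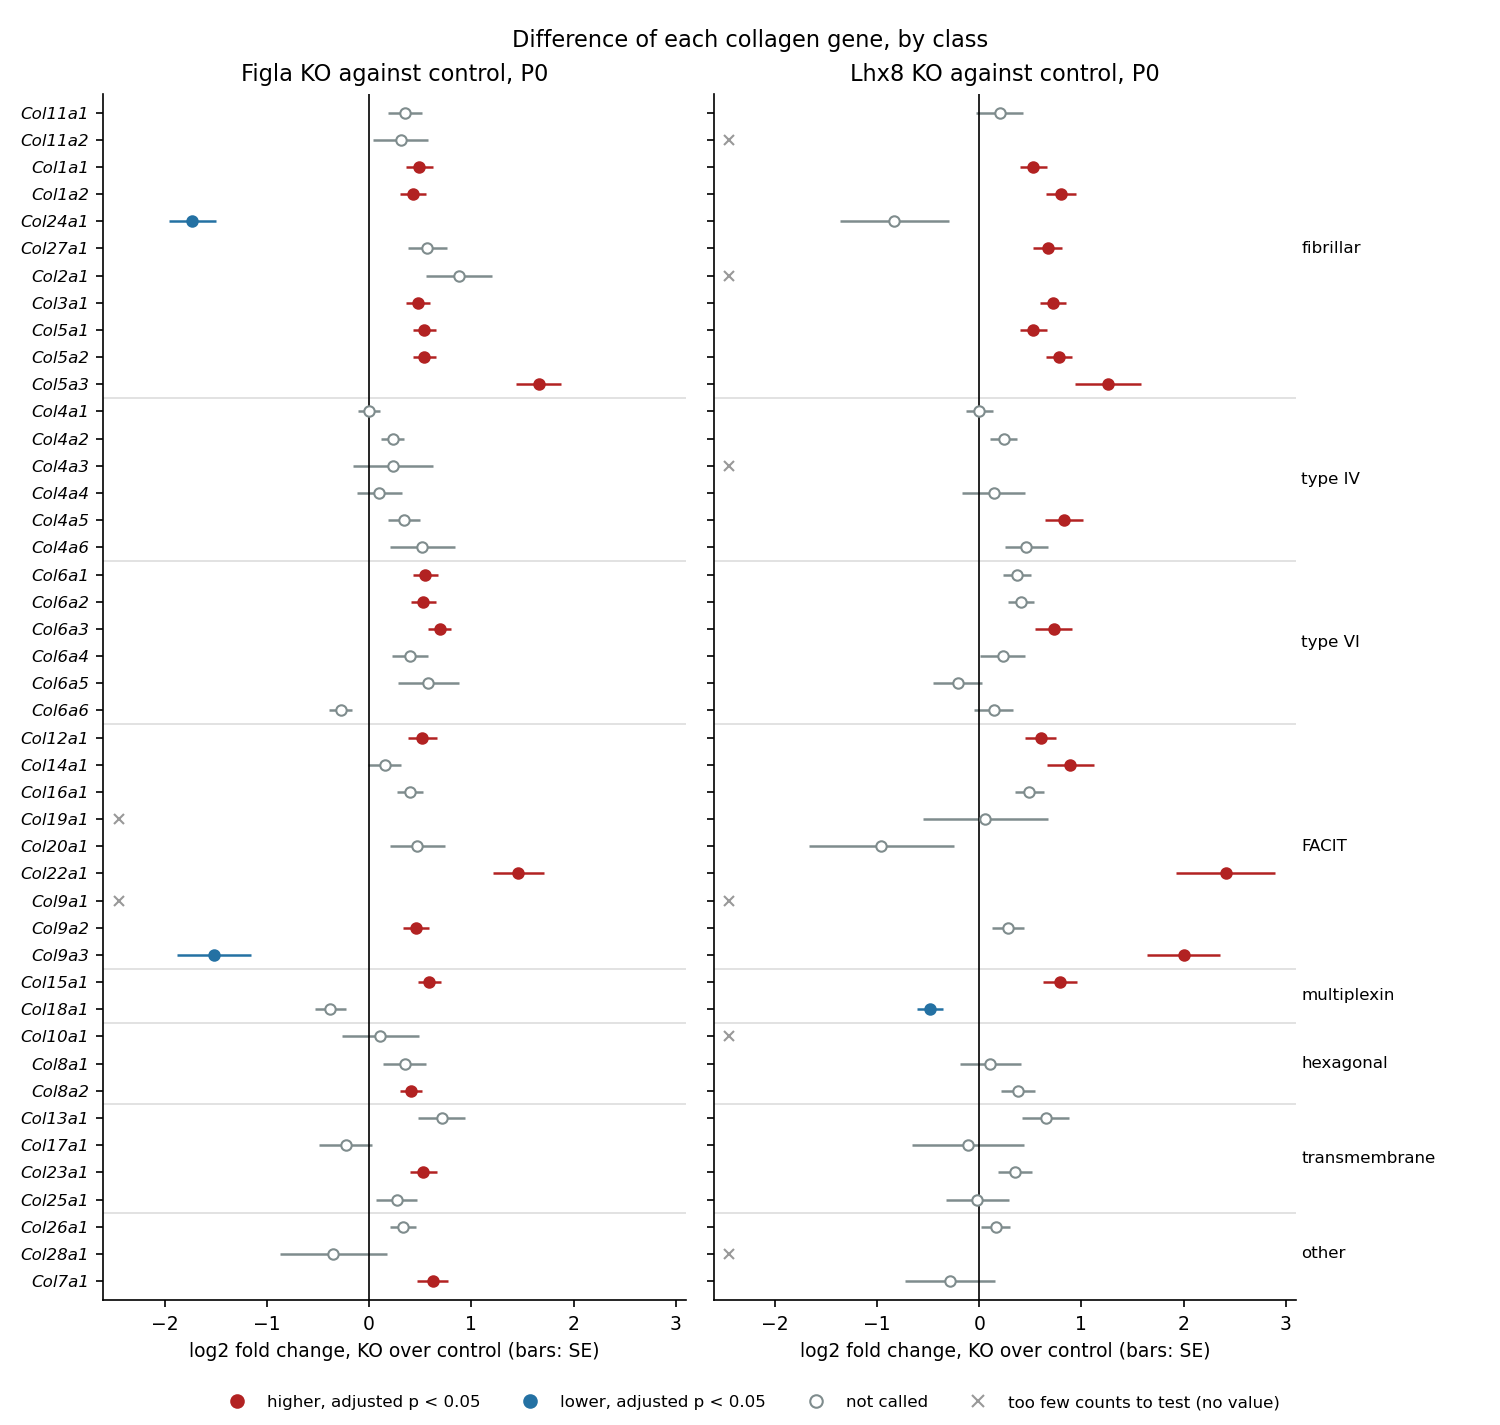
Log2 fold change of each collagen gene at P0, knockout over control, with SE bars, for the Figla set (left) and the Lhx8 set (right), grouped by collagen class. Filled red points passed the test as higher, filled blue points as lower, open points did not pass, and crosses at the left edge mark genes with too few counts to test. Most points of the fibrillar class lie right of 0 in both panels, and Col4a1 lies at 0.00 in both; with scaling on stroma markers the collagen medians move to -0.02 and -0.03.

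The abundant fibril-forming chains were each higher in Figla knockout ovaries by a similar, modest factor. Col1a1 (chromosome 11, 94936224 to 94953042, plus strand, GRCm38) had 279, 312 and 266 RPKM in knockouts, against 200, 233 and 178 RPKM in controls. Col3a1 (chromosome 1, 45311538 to 45349706, plus strand) had 286, 320 and 282 RPKM in knockouts, against 193, 244 and 201 RPKM in controls. For both genes every knockout sample stood above every control sample. The log2 fold change was 0.49 ± 0.13 (SE, n = 3 each) for Col1a1 and 0.48 ± 0.12 for Col3a1, with adjusted p of 0.0247 and 0.0245 (edgeR). Col1a2, the partner chain of type I collagen, had 97.2, 117 and 108 RPKM in knockouts, against 67.7, 92.4 and 79.7 RPKM in controls, again with no overlap; its log2 fold change of 0.43 ± 0.13 lay just inside the threshold (adjusted p = 0.0495, edgeR). These calls were not firm: Col1a1 passed under 4 of 12 alternative settings, Col3a1 under 5 and Col1a2 under 3. Here and below the 12 leave out the grouping of libraries by title, under which no collagen gene was called at P0 in the Figla set. In addition, with scaling on stroma markers their log2 fold changes were 0.05 (Col1a1), 0.04 (Col3a1) and -0.02 (Col1a2), none of them called.

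**Figure D2:**
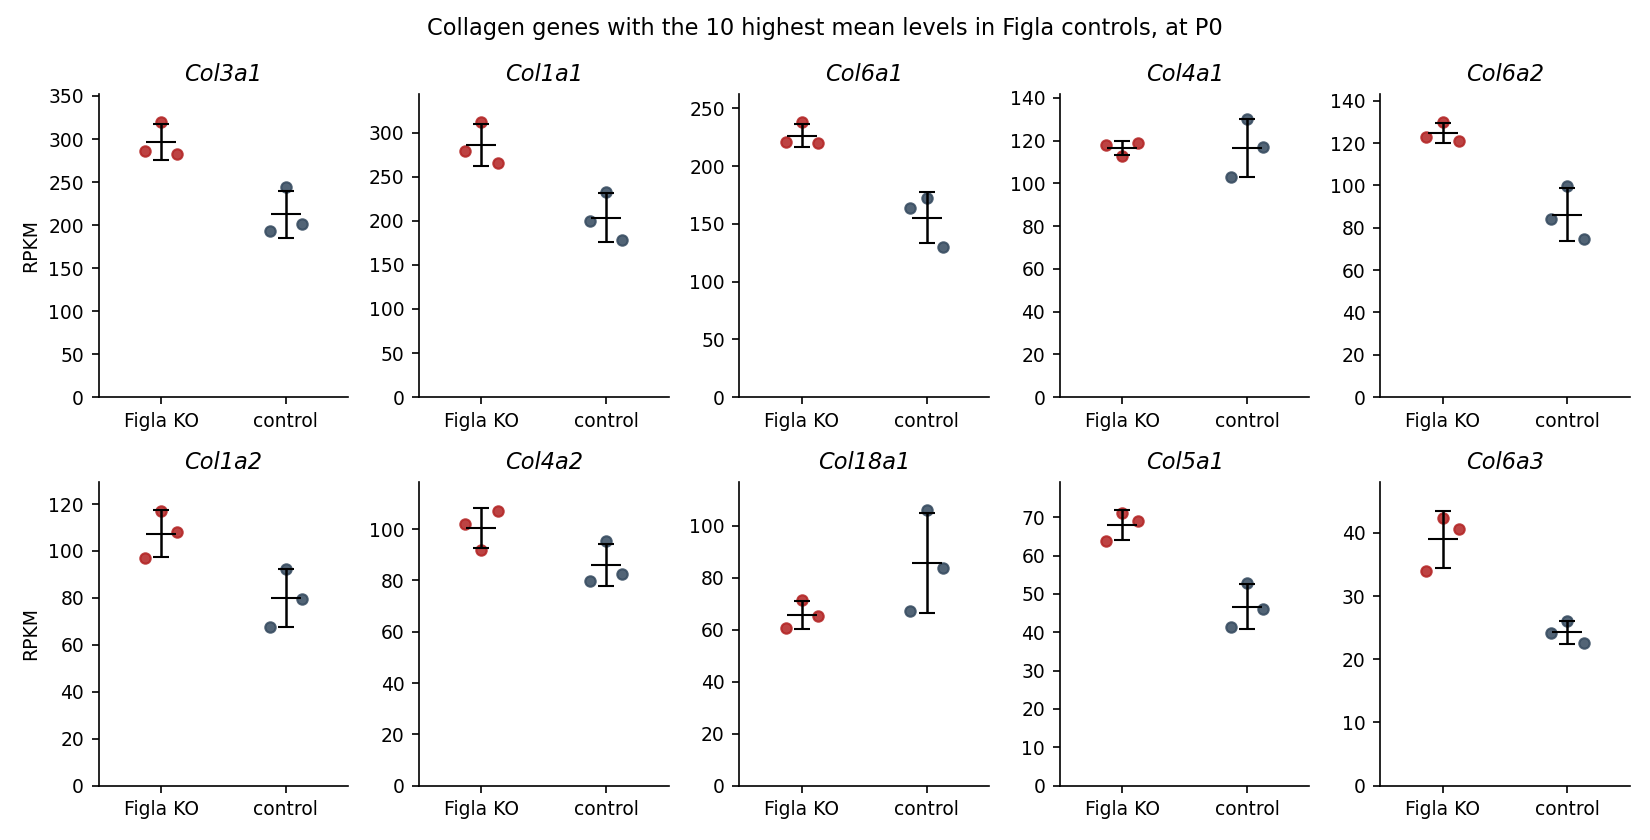
Level in each P0 sample of the Figla set of the 10 collagen genes with the highest control mean, in RPKM, with knockouts on the left and controls on the right of each panel; black marks give the mean and SD (n = 3). The knockout points of Col1a1, at 266 to 312 RPKM, stand above the control points at 178 to 233, whereas the points of Col4a1 mix.

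Type V collagen co-assembles with type I and is known to set fibril number and width. Col5a1 had 63.8, 71.2 and 69 RPKM in Figla knockouts, against 41.3, 52.9 and 46 RPKM in controls, and Col5a2 had 36.1, 41.8 and 37 RPKM in knockouts, against 28.1, 27.4 and 23.5 RPKM in controls. The groups did not overlap for either chain. The log2 fold change was 0.54 ± 0.11 for each (SE, n = 3 each; adjusted p = 0.00879 for Col5a1 and 0.00744 for Col5a2, edgeR), and Col5a2 kept its call under 11 of the 12 alternatives and Col5a1 under 9. The ratio of the paired chains was alike in both groups: Col5a1 over Col5a2 was 1.78 ± 0.0802 in knockouts and 1.79 ± 0.275 in controls, and Col1a1 over Col1a2 was 2.67 ± 0.205 in knockouts and 2.57 ± 0.368 in controls (ratio of RPKM, SD, n = 3 each).

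The largest differences among the collagens lay in genes with little transcript. Col5a3 (chromosome 9, 20770050 to 20815067, minus strand), the rarer partner chain of type V, had 2.54, 2.59 and 1.73 RPKM in Figla knockouts, against 0.671, 0.736 and 0.768 RPKM in controls. Col24a1 (chromosome 3, 145292472 to 145552011, plus strand), a fibrillar collagen described in developing bone and the eye of the mouse, had 0.454, 0.532 and 0.419 RPKM in knockouts, against 1.46, 1.9 and 1.33 RPKM in controls. The groups stood far apart for both genes, in opposite directions. Col5a3 rose 3.16-fold (log2 fold change 1.66 ± 0.22, SE, n = 3 each; adjusted p = 0.000566, edgeR). Col24a1 fell, with a log2 fold change of -1.73 ± 0.23 (adjusted p = 0.000672, edgeR), and it was called under each of the 12 alternatives (title grouping aside), and Col5a3 under 10. Both rest on modest counts, 118 to 222 per knockout library and 53 to 67 per control library for Col5a3, and 32 to 51 per knockout library and 130 to 153 per control library for Col24a1.

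Of the other fibrillar genes, none passed the test. Col27a1, expressed in cartilage and other tissues of the mouse embryo, had 4.06, 6.59 and 5.31 RPKM in knockouts, against 2.98, 4.39 and 3.42 RPKM in controls, and the groups overlapped (log2 fold change 0.57 ± 0.19, adjusted p = 0.0657, edgeR). Col2a1, the main cartilage collagen, stayed under 1 RPKM in every Figla sample, and at P0 had 0.637, 0.49 and 0.516 RPKM in knockouts, against 0.409, 0.236 and 0.247 RPKM in controls (adjusted p = 0.0933, edgeR). Col11a1 and Col11a2, the type XI chains that join type II in cartilage fibrils, had log2 fold changes of 0.35 ± 0.17 and 0.31 ± 0.27. In all, 6 of the 11 fibrillar genes were higher and 1 lower, with a class median of 0.49; with scaling on stroma markers the class median was 0.05.

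The promoters of 3 of these fibrillar genes are shown because they carry the contrast in the class: Col3a1 with the highest control mean, Col5a3 with the largest rise and Col24a1 with the largest fall among the collagens tested at P0 in Figla knockouts. Each is the 250 bases before the annotated start, from RefSeq on GRCm38.p6 and read 5′ to 3′ on the gene's strand; none of these stretches holds an annotated exon or UTR. Capitals mark CANNTG, the E-box, the kind of site that factors of the basic helix-loop-helix family such as FIGLA are known to bind.
Col3a1, chr1:45311288-45311537, plus strand: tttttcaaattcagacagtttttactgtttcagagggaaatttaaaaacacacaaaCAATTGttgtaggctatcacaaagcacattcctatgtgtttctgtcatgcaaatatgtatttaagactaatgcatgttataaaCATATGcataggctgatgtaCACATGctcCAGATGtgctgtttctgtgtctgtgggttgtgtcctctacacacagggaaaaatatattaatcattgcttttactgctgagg
Col5a3, chr9:20815068-20815317, minus strand: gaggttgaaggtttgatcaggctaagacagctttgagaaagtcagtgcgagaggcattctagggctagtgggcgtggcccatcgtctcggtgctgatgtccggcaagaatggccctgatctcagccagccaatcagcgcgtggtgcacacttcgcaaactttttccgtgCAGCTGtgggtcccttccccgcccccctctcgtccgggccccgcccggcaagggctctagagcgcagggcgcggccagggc
Col24a1, chr3:145292222-145292471, plus strand: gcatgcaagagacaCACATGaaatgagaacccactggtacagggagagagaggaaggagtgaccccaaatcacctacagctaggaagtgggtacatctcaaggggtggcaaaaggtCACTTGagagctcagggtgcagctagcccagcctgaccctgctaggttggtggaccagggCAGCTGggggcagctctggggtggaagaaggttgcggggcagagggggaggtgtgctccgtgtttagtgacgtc
The Col3a1 stretch held 4 matches to CANNTG, that of Col5a3 held 1 and that of Col24a1 held 3. The table gave 38 promoters for 35 of the 44 collagen genes. CANNTG, which reads the same on both strands, was found in 19 of these 38 (50%), against 66.2% of the 32851 promoters in the table over the same 250 bases. It was found in 6 of 13 promoters of collagen genes called higher in Figla knockouts at P0 (46.2%) and in 10 of 21 of those not called (47.6%). TAATTA, a core that LIM-homeodomain factors such as LHX8 are known to bind, also reads the same on both strands and shares no overlap with CANNTG; it was found in 2 of the 38 collagen promoters (5.26%) and in 4.84% of all. A match is a description of letters and not evidence of binding.

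Type IV genes gave no call in Figla knockouts at P0 with all samples. None of the 6 passed the test (0 at an unadjusted p below 0.05 as well, and 0 by DESeq2), and their median log2 fold change was 0.23; with scaling on stroma markers it was -0.23. Col4a1 and Col4a2 give the chains found in nearly all basement membranes and lie head to head on chromosome 8 (Col4a1 at 11198423 to 11312826 on the minus strand, Col4a2 at 11312805 to 11449287 on the plus strand), with 22 exon bases in common that unstranded counting cannot assign. Col4a1 had 118, 113 and 119 RPKM in knockouts, against 103, 130 and 117 RPKM in controls, with the knockout values inside the control range. Its log2 fold change was 0.00 ± 0.11 (SE, n = 3 each; adjusted p = 0.999, edgeR). Scaled on stroma markers it was -0.44 ± 0.13, called lower (adjusted p = 0.0182, edgeR).

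Col4a2 had 102, 91.7 and 107 RPKM in Figla knockouts, against 79.8, 95.3 and 82.6 RPKM in controls, so the groups overlapped (log2 fold change 0.23 ± 0.11, adjusted p = 0.19, edgeR). Col4a1 over Col4a2 was 1.16 ± 0.0611 in knockouts and 1.35 ± 0.0603 in controls (ratio of RPKM, SD, n = 3 each), with no overlap between 1.11 to 1.23 in knockouts and 1.29 to 1.41 in controls. Col4a5, an X-linked chain that joins Col4a6 or the Col4a3 and Col4a4 chains, had 39, 28.8 and 31 RPKM in knockouts, against 25.2, 31.6 and 21.4 RPKM in controls (adjusted p = 0.172, edgeR); without control replicate 2 it was called higher (log2 fold change 0.49 ± 0.15, adjusted p = 0.047, edgeR). Its partners were scarce, with group means at P0 under 3 RPKM for each of Col4a3, Col4a4 and Col4a6, and Col4a6 had the largest difference of these (0.52 ± 0.32, adjusted p = 0.306, edgeR).

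Because both classes are read in the same library, their ratio does not depend on how libraries are scaled. The summed counts of the fibrillar genes over those of the type IV genes were 3.69, 4.61 and 3.68 in Figla knockouts at P0, against 3.16, 3.17 and 2.99 in controls. All 3 knockout ratios lay above all 3 control ratios, with a mean of 3.99 ± 0.534 in knockouts and 3.11 ± 0.101 in controls (SD, n = 3 each). Type VI over type IV gave 1.38, 1.69 and 1.41 in knockouts, against 1.23, 1.14 and 1.02 in controls. At E18.5 the fibrillar ratio was 3.16, 4.23 and 4.32 in knockouts, against 3.43, 4.3 and 4.41 in controls, and the groups overlapped. At 3 samples against 3 an exact permutation test cannot go under p = 0.10, so these ratios are given as values.

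**Figure D3:**
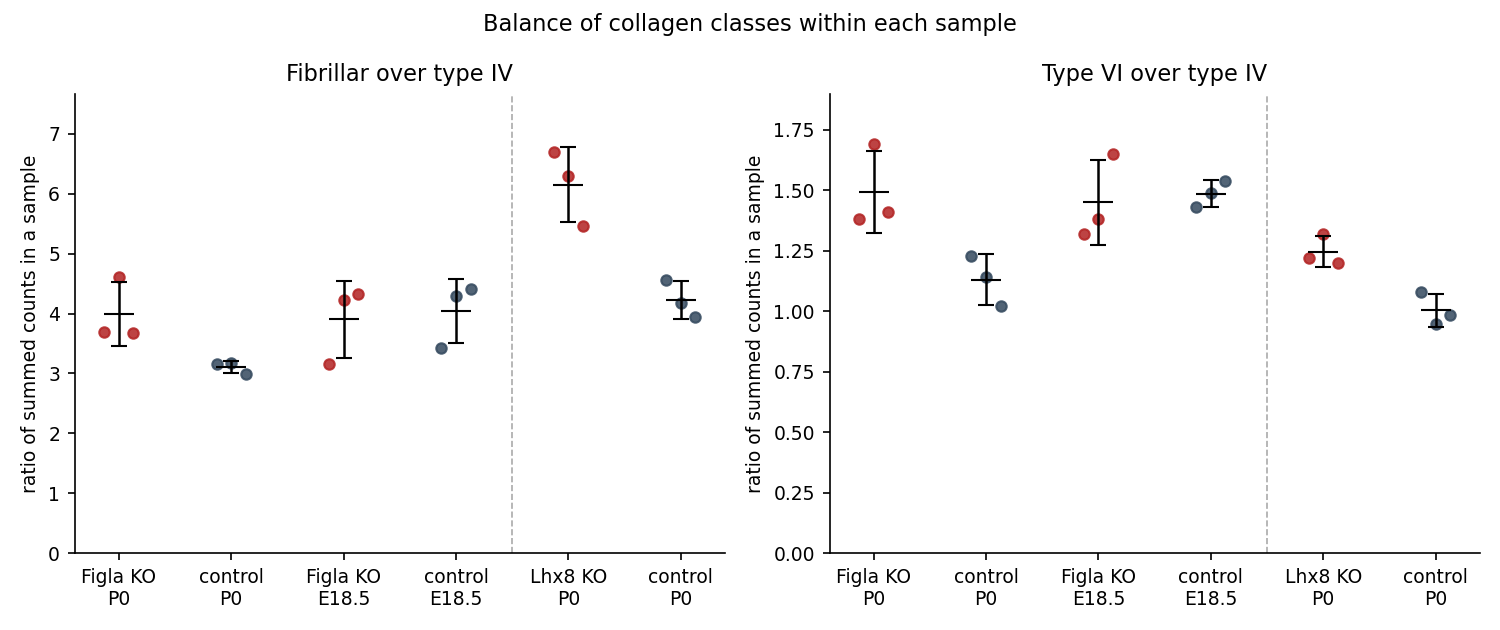
Ratio of summed counts of fibrillar to type IV collagen genes (left) and of type VI to type IV genes (right) in each sample, with knockouts left of their controls; black marks give the mean and SD (n = 3), and the dashed line parts the Figla set from the 3′ counts of the Lhx8 set, whose levels are not comparable. The P0 knockout points stand above the control points in both sets, at 3.68 to 4.61 against 2.99 to 3.17 for fibrillar over type IV in the Figla set, while the E18.5 points mix.

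Type VI collagen, the beaded filament that links cells to the fibrils around them, gave 3 higher genes of 6, and these are the 3 chains of its main form. Col6a1 had 221, 238 and 220 RPKM in Figla knockouts, against 164, 172 and 130 RPKM in controls. Col6a2 had 123, 130 and 121 RPKM in knockouts, against 84.2, 99.6 and 74.7 RPKM in controls. Col6a3 had 33.9, 42.4 and 40.6 RPKM in knockouts, against 24.2, 26.1 and 22.5 RPKM in controls. No knockout sample of these genes fell into the control range. The log2 fold change was 0.55 ± 0.12 for Col6a1, 0.53 ± 0.12 for Col6a2 and 0.69 ± 0.11 for Col6a3 (SE, n = 3 each; adjusted p of 0.0129 for Col6a1, 0.0133 for Col6a2 and 0.00238 for Col6a3, edgeR). Of the 12 alternatives, 8 kept the call of Col6a1, 7 that of Col6a2 and 10 that of Col6a3. With scaling on stroma markers none of the 3 was called. Col6a1 over Col6a2 was 1.82 ± 0.0153 in knockouts and 1.8 ± 0.118 in controls (ratio of RPKM, SD, n = 3 each). Col6a4, Col6a5 and Col6a6, whose chains can take the place of the Col6a3 chain, did not pass; Col6a6 had 9.07, 10.3 and 9.13 RPKM in knockouts, against 10.1, 12.2 and 12.5 RPKM in controls (log2 fold change -0.28 ± 0.11, adjusted p = 0.121, edgeR), and with scaling on stroma markers it was called lower at -0.73 ± 0.13 (adjusted p = 0.000878, edgeR).

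Of 7 FACIT genes tested at P0, 3 were higher in Figla knockouts and 1 lower, with a class median of 0.46; with scaling on stroma markers 1 was higher (Col22a1) and 1 lower (Col9a3), with a class median of 0.02; over all types other than fibrillar and type IV the median was 0.41, and -0.03 with scaling on stroma markers. Col12a1, which coats fibrils in tissues under tension, had 36.4, 30.4 and 30.4 RPKM in knockouts, against 22.5, 26.5 and 18.7 RPKM in controls (log2 fold change 0.52 ± 0.14, adjusted p = 0.0264, edgeR). Col22a1 (chromosome 15, 71795795 to 72034227, minus strand), known from tissue junctions such as that of muscle and tendon, had 1.09, 0.829 and 0.77 RPKM in knockouts, against 0.294, 0.36 and 0.322 RPKM in controls. Neither gene overlapped between groups. The call of Col12a1 held under only 4 of the 12 alternatives. Col22a1 rose 2.75-fold (log2 fold change 1.46 ± 0.25, adjusted p = 0.00284, edgeR) on 71 to 110 counts per knockout library and 32 to 38 per control library, and it was called under each of the 12 alternatives (title grouping aside). Col14a1 (log2 fold change 0.15 ± 0.16), Col16a1 (0.40 ± 0.13, adjusted p = 0.0627, edgeR) and Col20a1 (0.47 ± 0.27) did not pass. Col9a2, a chain of type IX, the FACIT of cartilage, had 29.3, 28.9 and 37.9 RPKM in knockouts, against 24.6, 21.4 and 23.9 RPKM in controls (0.46 ± 0.13, adjusted p = 0.0339, edgeR). Its call held under 5 of the 12 alternatives.

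The other 2 chains of type IX differed from Col9a2. Col9a3 (chromosome 2, 180597790 to 180622189, plus strand) had 1.04, 1.24 and 1.19 RPKM in Figla knockouts, against 1.78, 2.8 and 5.43 RPKM in controls, with no overlap but a wide spread among controls. It fell, with a log2 fold change of -1.52 ± 0.36 (SE, n = 3 each; adjusted p = 0.017, edgeR). The call held under 7 of the 12 alternatives. It was lost without knockout replicate 1 (adjusted p = 0.0596), 2 (0.0567) or 3 (0.0621), in 1 model of all Figla samples (0.0523) and with agreeing labels only (0.173), all by edgeR, and without control replicate 3 the value was -0.96 (adjusted p = 0.0481, edgeR). Col9a1 had 0 counts in all 3 knockout libraries and 0.0334, 0.0187 and 0.0308 RPKM in the controls, too little to compare. Of the exon bases of Col9a3, 6.07% (234 bases) overlap Tcfl5 on the opposite strand, so reads there cannot be told apart without strand. Tcfl5, a transcription factor known from germ cells, had 32.6, 29.9 and 28.9 CPM in knockouts, against 45.2, 37 and 39.8 CPM in controls (log2 fold change -0.41 ± 0.13, adjusted p = 0.0478, edgeR), where Col9a3 had 4.01, 4.77 and 4.59 CPM in knockouts, against 6.86, 10.8 and 20.9 CPM in controls. Its part in the Col9a3 value was not tested.

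**Figure D4:**
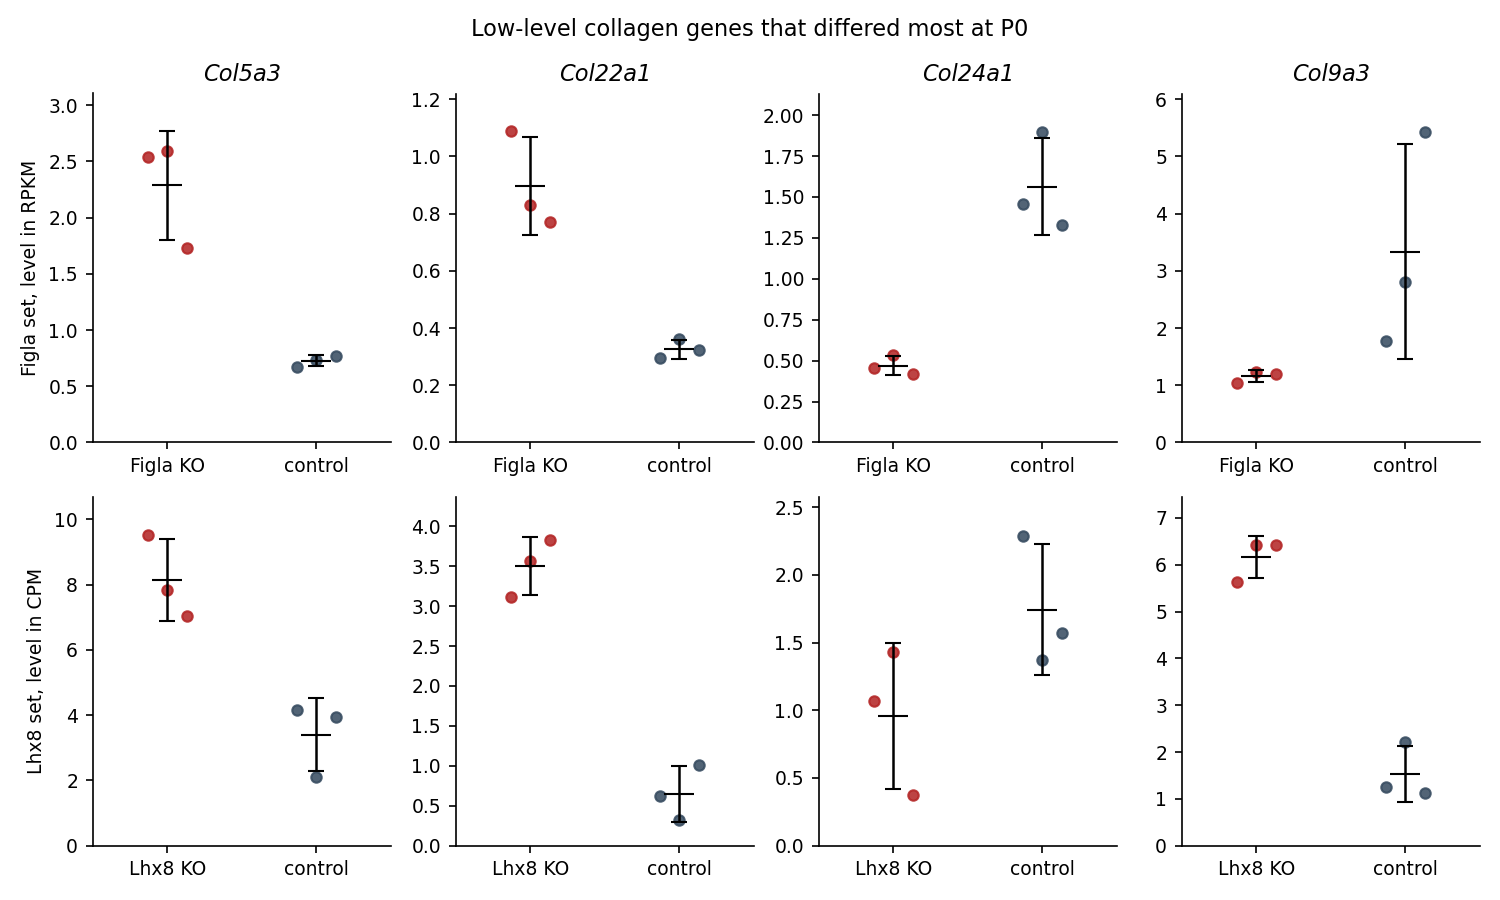
Level in each P0 sample of Col5a3, Col22a1, Col24a1 and Col9a3, in RPKM for the Figla set (top) and in CPM for the Lhx8 set (bottom), with knockouts left of controls; black marks give the mean and SD (n = 3). Col5a3 and Col22a1 stand higher in knockouts in both sets, Col24a1 overlaps between groups in the Lhx8 set, and Col9a3 stands lower in Figla knockouts (1.04 to 1.24 RPKM) but higher in Lhx8 knockouts (5.64 to 6.43 CPM) than in their controls.

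The remaining classes gave 4 higher genes and none lower; with scaling on stroma markers none of their 12 genes tested was higher and Col18a1 was lower, with a median of -0.11. Multiplexins are collagens of basement membrane zones that carry sugar chains, and the 2 genes moved apart. Col15a1, found where basement membranes meet fibrils, had 14.8, 14.2 and 15.7 RPKM in Figla knockouts, against 9.48, 11.2 and 9.13 RPKM in controls (log2 fold change 0.59 ± 0.11, SE, n = 3 each; adjusted p = 0.00626, edgeR). Col18a1, the source of the fragment endostatin, had 60.6, 71.4 and 65.4 RPKM in knockouts, against 67.4, 106 and 84 RPKM in controls, with overlap (-0.38 ± 0.15, adjusted p = 0.116, edgeR); with scaling on stroma markers it was called lower at -0.82 ± 0.16 (adjusted p = 0.00139, edgeR). Col8a2, which forms hexagonal sheets, was higher at 16.9, 19.1 and 18.6 RPKM in knockouts, against 12.8, 14.1 and 14.1 RPKM in controls (0.41 ± 0.11, adjusted p = 0.0235, edgeR; -0.03 with scaling on stroma markers). Col7a1, the anchoring fibril of the skin, was higher at 1.89, 2.13 and 2.41 RPKM in knockouts, against 1.4, 1.42 and 1.37 RPKM in controls (0.62 ± 0.15, adjusted p = 0.018, edgeR). The transmembrane Col23a1 was higher at 6.56, 6.34 and 6.86 RPKM in knockouts, against 4.47, 5.21 and 4 RPKM in controls (0.53 ± 0.13, adjusted p = 0.0213, edgeR). In each of these but Col18a1 the groups stood apart. Of the 12 alternatives, 10 kept the call of Col15a1, 7 that of Col7a1, 6 that of Col8a2 and 5 that of Col23a1. Apart from Col18a1, the genes of these classes that did not pass had log2 fold changes between -0.35 (Col28a1) and 0.71 (Col13a1).

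Genes that act with collagens were read from lists of known partners. Beside their counts, the shares of all genes called in Figla knockouts at P0 were 5.12% higher and 10.9% lower. Among 19 partners of the fibril (proteoglycans, fibronectin, elastic fibre and matricellular proteins), 10 were higher in Figla knockouts at P0 and none lower, with a median log2 fold change of 0.39. Fbn1, the fibrillin of microfibrils, averaged 36.3 ± 3.44 RPKM in knockouts and 23.6 ± 0.956 RPKM in controls (SD, n = 3 each; log2 fold change 0.62 ± 0.10, adjusted p = 0.00212, edgeR), and Tnxb, a tenascin that binds collagen fibrils, averaged 10.8 ± 1.06 RPKM in knockouts and 6.71 ± 1.04 RPKM in controls. Of 12 genes tested for propeptide cleavage and crosslinking 3 were higher, among them Loxl1, a lysyl oxidase, at 69.9 ± 11.8 RPKM in knockouts and 46 ± 4.62 RPKM in controls (0.61 ± 0.13, adjusted p = 0.0118, edgeR).

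Of 22 genes of collagen folding, modification and secretion, 2 were higher, Fkbp10 and P3h3, both of which act on new chains in the endoplasmic reticulum, and 1 lower. The lower one was Mia2, which gives proteins of the exit sites through which procollagen leaves, at 7.89 ± 0.773 RPKM in Figla knockouts and 13 ± 1.52 RPKM in controls (log2 fold change -0.71 ± 0.12, adjusted p = 0.00249, edgeR). Of 15 basement membrane partners 2 were higher: Hspg2 (perlecan), at 91 ± 8.44 RPKM in knockouts and 58.6 ± 9.09 RPKM in controls (0.64 ± 0.13, adjusted p = 0.00898, edgeR), and Lamc3, a laminin chain, at 1.15 ± 0.227 RPKM in knockouts and 0.428 ± 0.0853 RPKM in controls. Of 11 collagen receptors 3 were higher, led by the fibroblast integrin Itga11 at 5.49 ± 0.591 RPKM in knockouts and 3.09 ± 0.481 RPKM in controls, and of 13 genes of collagen breakdown and its inhibitors 3 were higher (Timp2, Mmp2 and Reck). Apart from Mia2, no gene of these lists was called lower in Figla knockouts at P0. The share called higher was 9.09% for folding and secretion and 13.3% for basement membrane partners, against 5.12% of all genes. It was 23.1% for breakdown, 25% for crosslinking, 27.3% for receptors and 52.6% for fibril partners. With scaling on stroma markers the medians were -0.05 for fibril partners, -0.01 for crosslinking, -0.19 for folding and secretion, -0.16 for basement membrane partners, -0.06 for receptors and 0.02 for breakdown. Lamc3 was then the only gene of these lists called higher, while Dcn, Mia2, Mia3, Ppib, Lamb1 and Adgrg1, most of them named here for these calls alone, were among those called lower.

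Markers of several ovarian cell types moved in the same samples, and in whole ovaries more cells of a type and more RNA per cell cannot be told apart. Beside the counts of markers called, the shares of all genes called in Figla knockouts at P0 were 5.12% higher and 10.9% lower. The summed level of 13 stroma markers, a list without collagens, was 1423 to 1528 CPM in Figla knockouts and 1093 to 1241 CPM in controls at P0, with 7 of 13 called higher and Ptch1 lower. Endothelial markers summed to 527 to 611 CPM in knockouts and 319 to 467 CPM in controls (5 of 10 higher), and smooth muscle and pericyte markers to 253 to 292 CPM in knockouts and 187 to 208 CPM in controls (3 of 8 higher). Pregranulosa and granulosa markers summed to 2253 to 2400 CPM in knockouts and 1430 to 1964 CPM in controls (2 of 10 higher), and macrophage markers to 87.3 to 103 CPM in knockouts and 61.2 to 70.4 CPM in controls (1 of 9 tested higher). Germ cell markers summed to 830 to 880 CPM in knockouts and 933 to 1170 CPM in controls, with 4 of 8 called lower. The part of these in the collagen differences was not tested. Scaling on stroma markers takes out any shift that collagens share with those markers, and it cannot tell more stromal cells from more RNA per cell. For types outside the ovary, markers of cartilage summed to 26.9 to 28.9 CPM in knockouts and 16.8 to 23.2 CPM in controls, those of bone to 13.3 to 14.6 CPM in knockouts and 9.75 to 13.1 CPM in controls, and those of skeletal muscle to 11.4 to 21.5 CPM in knockouts and 17.7 to 28.3 CPM in controls, with 1 of 4 tested called lower in each list and none higher. The bone marker Bglap2 was at 0 in every Figla library, and the cartilage marker Snorc was at 0 in every E18.5 library. Surface epithelium and mesothelium markers overlapped between groups, at 543 to 772 CPM in knockouts and 557 to 663 CPM in controls, as did mesonephric markers, at 181 to 276 CPM in knockouts and 147 to 196 CPM in controls, and erythroid markers, at 217 to 917 CPM in knockouts and 155 to 1199 CPM in controls, with none called in these lists.

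Lhx8 knockout ovaries at P0 also held more collagen genes that were higher than lower. These libraries read only the 3′ end of each transcript, so levels are CPM and are compared between groups but not between genes. Of 38 collagen genes tested, 14 were higher and 1 lower, against shares of 3.06% higher and 7.29% lower among all 15274 genes tested. The median log2 fold change was 0.38 for collagens and 0.05 for all genes, and 31 of 38 collagens were positive; with scaling on stroma markers the medians were -0.03 for collagens and -0.37 for all genes, 17 of 38 were positive, and only Col9a3 and Col22a1 (higher) and Col18a1 (lower) were called. All 3 knockouts lay above all 3 controls for 21 collagen genes and under them for 1, where 15.6% and 18.1% of all genes tested did so. The count of calls was 3 without control replicate 1, 4 without control replicate 2, 7 without control replicate 3 and 6 without knockout replicate 2. Collagen genes took 0.895%, 0.823% and 0.724% of all counts in Lhx8 knockouts, against 0.538%, 0.514% and 0.599% in controls; in the Figla set at P0 the shares were 1.24%, 1.42% and 1.29% in knockouts, against 0.936%, 1.12% and 0.906% in controls.

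Of 9 fibrillar genes tested in the Lhx8 set, 7 were higher and none lower, with a median of 0.67, and 0.24 with scaling on stroma markers. Col1a2 had 1697, 1427 and 1255 CPM in Lhx8 knockouts, against 739, 874 and 906 CPM in controls. Col3a1 had 1243, 1115 and 1008 CPM in knockouts, against 649, 664 and 731 CPM in controls. The groups stood well apart for both genes. The log2 fold changes were 0.80 ± 0.15 for Col1a2 and 0.72 ± 0.13 for Col3a1 (SE, n = 3 each; adjusted p of 0.0079 and 0.00646, edgeR), and Col3a1 was called under 10 of 11 alternatives and Col1a2 under 9. Col1a1 had 2256, 2254 and 2068 CPM in knockouts, against 1655, 1306 and 1581 CPM in controls (0.53 ± 0.13, adjusted p = 0.0283, edgeR), a call that held under 5 of 11 alternatives.

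All 3 type V genes were called. Col5a1 had 316, 314 and 266 CPM in Lhx8 knockouts, against 223, 187 and 211 CPM in controls (log2 fold change 0.53 ± 0.13, adjusted p = 0.0337, edgeR). Col5a2 had 111, 113 and 92 CPM in knockouts, against 61.5, 60.2 and 61.8 CPM in controls (0.78 ± 0.13, adjusted p = 0.00479, edgeR). Col5a3 had 9.53, 7.84 and 7.05 CPM in knockouts, against 4.17, 2.11 and 3.93 CPM in controls, a 2.39-fold rise (1.26 ± 0.32, adjusted p = 0.0357, edgeR). Of 11 alternatives, 10 kept the call of Col5a2, 5 that of Col5a1 and 4 that of Col5a3. Each gene's groups stood apart, as did those of Col27a1, with 67.7, 69.1 and 54.2 CPM in knockouts, against 40.3, 39.6 and 40.4 CPM in controls (0.67 ± 0.14, adjusted p = 0.0156, edgeR; called under 6 of 11 alternatives). Col24a1 was counted 3 to 14 times per knockout library and 13 to 22 times per control library. Its levels overlapped, at 1.07, 1.43 and 0.371 CPM in knockouts, against 2.29, 1.37 and 1.57 CPM in controls (-0.83 ± 0.53, adjusted p = 0.338, edgeR).

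In the Lhx8 set 1 type IV gene was called. Col4a1 had 534, 501 and 550 CPM in Lhx8 knockouts, against 487, 502 and 591 CPM in controls (log2 fold change 0.00 ± 0.13, SE, n = 3 each), and Col4a2 had 269, 281 and 270 CPM in knockouts, against 217, 217 and 260 CPM in controls (0.24 ± 0.13, adjusted p = 0.252, edgeR). Col4a2 levels stood apart by little and Col4a1 levels mixed. Of 5 type IV genes tested, the one called was Col4a5, which had 16.9, 18.1 and 18.1 CPM in knockouts, against 9.38, 10.9 and 9.65 CPM in controls (0.83 ± 0.19, adjusted p = 0.0206, edgeR; called under 5 of 11 alternatives). The class median was 0.24, and -0.18 with scaling on stroma markers. Fibrillar counts over type IV counts were 6.7, 6.3 and 5.46 in knockouts, against 4.56, 4.18 and 3.94 in controls, with no overlap (6.15 ± 0.633 in knockouts and 4.23 ± 0.313 in controls, SD, n = 3 each).

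The other calls of the Lhx8 set fell in 3 classes. Col6a3 had 168, 156 and 110 CPM in Lhx8 knockouts, against 79.3, 82.5 and 101 CPM in controls (log2 fold change 0.73 ± 0.18, adjusted p = 0.0294, edgeR), while Col6a1 (0.37 ± 0.14, adjusted p = 0.113, edgeR) and Col6a2 (0.41 ± 0.13, adjusted p = 0.0687, edgeR) did not pass. Of 8 FACIT genes tested 4 were higher. Col12a1 had 46.4, 38.2 and 47.5 CPM in knockouts, against 29.1, 27.8 and 30.4 CPM in controls (0.60 ± 0.15, adjusted p = 0.0297, edgeR), and Col14a1, which binds fibrils through decorin, had 54.2, 46.6 and 27.3 CPM in knockouts, against 24.4, 21.6 and 23.3 CPM in controls (0.89 ± 0.23, adjusted p = 0.0364, edgeR). Of 11 alternatives, 5 kept the calls of Col6a3 and Col12a1 and 4 that of Col14a1, and with scaling on stroma markers the FACIT genes called were Col9a3 and Col22a1, both higher, and no type VI gene was called. Knockout replicate 3 lay close to the controls for Col14a1 and Col6a3, though above them in both.

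Col22a1 and Col9a3 showed the largest differences of the Lhx8 set among the collagens. Col22a1 had 3.11, 3.57 and 3.83 CPM in Lhx8 knockouts, against 0.625, 0.316 and 1.01 CPM in controls, on 31 to 35 counts per knockout library and 3 to 9 per control library. Col9a3 had 5.64, 6.42 and 6.43 CPM in knockouts, against 1.25, 2.21 and 1.12 CPM in controls. The groups stood well apart for both. Col22a1 rose 5.33-fold (log2 fold change 2.41 ± 0.48, SE, n = 3 each; adjusted p = 0.0112, edgeR) and Col9a3 4-fold (2.00 ± 0.36, adjusted p = 0.0073, edgeR), and of 11 alternatives Col9a3 was called under each and Col22a1 under 9. Tcfl5, which overlaps Col9a3 on the opposite strand, stood at 10.1, 9.78 and 8.78 CPM in knockouts, against 14.1, 13.1 and 15 CPM in controls. It did not pass (log2 fold change -0.55 ± 0.20, adjusted p = 0.101, edgeR), and its part in the Col9a3 value was not tested.

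The multiplexins parted in the Lhx8 set too. Col15a1 had 35.6, 34.4 and 28.3 CPM in Lhx8 knockouts, against 16.4, 19 and 21.4 CPM in controls (log2 fold change 0.79 ± 0.17, adjusted p = 0.0185, edgeR). Col18a1 had 128, 144 and 131 CPM in knockouts, against 181, 175 and 207 CPM in controls, and it was the only collagen called lower (-0.48 ± 0.13, adjusted p = 0.0432, edgeR; -0.89 ± 0.18 with scaling on stroma markers). The call of Col15a1 held under 6 of 11 alternatives and that of Col18a1 under 4. Neither pair of groups overlapped. No gene of the hexagonal, transmembrane or anchoring and unclassed groups passed in the Lhx8 set.

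Among the partner lists in Lhx8 knockouts, 6 of 19 fibril partners were higher (median 0.51). Beside this and the list and marker counts that follow, the shares of all genes called were 3.06% higher and 7.29% lower. Lum, which spaces fibrils, averaged 60.4 ± 7.81 CPM in knockouts and 34.2 ± 3.38 CPM in controls, Postn 32.8 ± 7.42 CPM in knockouts and 15.6 ± 1.7 CPM in controls, and Thbs2 56.4 ± 10.4 CPM in knockouts and 28.4 ± 3.67 CPM in controls (SD, n = 3 each). None of 9 crosslinking genes and none of 14 basement membrane partners was called by edgeR; at an unadjusted p below 0.05, 3 crosslinking genes were higher, and 4 basement membrane partners were higher and 1 lower. Over all genes tested in the Lhx8 set, 12.9% were higher and 14.9% lower at that unadjusted cutoff. Mia2 was again called lower, and in this set it was the only folding and secretion gene called. It averaged 42 ± 1.72 CPM in knockouts and 64.7 ± 8.74 CPM in controls (log2 fold change -0.62 ± 0.14, adjusted p = 0.0219, edgeR). Of 10 receptors Itga11 was higher, and of 13 breakdown genes Mmp15, Timp1 and Mmp14 were higher. With scaling on stroma markers the medians were 0.10 for fibril partners, -0.09 for crosslinking, -0.10 for folding and secretion, -0.40 for basement membrane partners, 0.18 for receptors and 0.10 for breakdown. Postn was then the only gene of these lists called higher, while Mia2, Mia3, Lama1, Lamb1, Lamc3 and Itga1, most of them named here for these calls alone, were called lower. Stroma markers summed to 1290 to 1428 CPM in knockouts and 1036 to 1149 CPM in controls, with Vim the 1 called of 12 tested, and endothelial markers to 605 to 695 CPM in knockouts and 559 to 599 CPM in controls with none called. Pregranulosa and granulosa markers summed to 1480 to 1711 CPM in knockouts and 1245 to 1385 CPM in controls (1 of 9 tested higher), smooth muscle and pericyte markers to 204 to 216 CPM in knockouts and 145 to 207 CPM in controls (none called), and macrophage markers to 115 to 155 CPM in knockouts and 84.4 to 109 CPM in controls (1 of 8 tested higher). Germ cell markers summed to 501 to 573 CPM in knockouts and 526 to 696 CPM in controls, with 2 of 8 lower. Mesonephric markers summed to 217 to 278 CPM in knockouts and 167 to 202 CPM in controls with no overlap (1 of 6 tested higher), surface epithelium and mesothelium markers to 370 to 420 CPM in knockouts and 310 to 446 CPM in controls (1 of 8 higher), and erythroid markers to 4915 to 11841 CPM in knockouts and 4139 to 6411 CPM in controls (none of 5 tested called). Markers of cartilage summed to 11.3 to 16.6 CPM in knockouts and 12.9 to 19.1 CPM in controls (1 of 4 tested lower), those of bone to 9.98 to 11.9 CPM in knockouts and 11.2 to 14.2 CPM in controls, and those of skeletal muscle to 22.3 to 30.4 CPM in knockouts and 22.2 to 27.2 CPM in controls, with none called for bone or muscle. The part of these in the collagen differences was not tested, and scaling on stroma markers cannot tell more stromal cells from more RNA per cell.

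Set side by side, both P0 comparisons tested 37 collagen genes in common. The same 10 genes were higher in both knockouts (Col1a1, Col1a2, Col3a1, Col5a1, Col5a2, Col5a3, Col6a3, Col12a1, Col15a1 and Col22a1), which is 62.5% of the 16 higher in Figla knockouts and 71.4% of the 14 higher in Lhx8 knockouts. Over all genes, 179 were higher in both, 20.2% of the 887 higher in Figla knockouts and 38.2% of the 468 higher in Lhx8 knockouts. Only 14185 genes were tested in both sets, and the 887 and 468 can hold genes tested in 1 set, which cannot be shared. Every called collagen was tested in both, so the shares of collagens and of all genes are not on equal terms. The collagen members were chosen with these results known, and the shares were not tested against each other. With scaling on stroma markers Col5a3 and Col22a1 were still called higher in the Figla set and Col22a1 in the Lhx8 set. Col18a1 was then called lower in both sets, at -0.82 ± 0.16 in Figla knockouts and -0.89 ± 0.18 in Lhx8 knockouts. With TMM scaling, 762 of all genes were called lower in both. They made up 40.5% of the 1880 lower in Figla knockouts and 68.4% of the 1114 lower in Lhx8 knockouts, totals that can also hold genes tested in 1 set. No collagen gene was among them. Signs with TMM scaling were positive in both for 27 collagen genes, negative in both for 3 and opposite for 6. The sets share no control samples but differ in library kit, and no test of a difference between them was made. Col9a3 was called in both with opposite signs, -1.52 ± 0.36 in Figla knockouts and 2.00 ± 0.36 in Lhx8 knockouts; the Figla call held under 7 of 12 alternatives and the Lhx8 call under each of 11.

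At E18.5 no collagen gene was called in Figla knockouts. Of 42 tested, 0 were higher and 0 lower by edgeR, against 0% higher and 0.0062% lower of 16131 genes; DESeq2 called 0 as well, and at an unadjusted p below 0.05 there was 1 higher (Col22a1, log2 fold change 1.03 ± 0.41) and 1 lower (Col24a1, -1.18 ± 0.39). Of all genes tested, 1.74% were higher and 2.02% lower at that unadjusted cutoff. Leaving out any 1 sample, control 3 with its low Figla level included, left 0 calls. The median log2 fold change of the collagens was 0.02. The spread within groups was wide, and it followed 1 sample in each genotype: Col1a1 had 104, 299 and 309 RPKM in knockout samples 1-2, 3 and 4, against 72.4, 318 and 392 RPKM in control samples 1-2, 3 and 4. Sample 1-2 was the lowest in both genotypes. Col3a1 varied far less, with 228, 270 and 277 RPKM in knockouts, against 231, 240 and 291 RPKM in controls. Col3a1 over Col1a1 was accordingly 2.19 in knockout sample 1-2 and 3.18 in control sample 1-2, against 0.743 to 0.9 in the other E18.5 samples and 1.04 ± 0.0208 in knockouts and 1.05 ± 0.0835 in controls at P0 (ratio of RPKM, SD, n = 3 each).

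The summed levels show the same spread. Fibrillar genes summed to 679 ± 194 RPKM in E18.5 knockouts and 697 ± 265 RPKM in E18.5 controls, against 806 ± 58.6 RPKM in P0 knockouts and 577 ± 70.1 RPKM in P0 controls (SD, n = 3 each). Type VI genes summed to 411 ± 21.4 RPKM in P0 knockouts and 285 ± 37.1 RPKM in P0 controls, and all collagens to 1698 ± 68.2 RPKM in P0 knockouts and 1301 ± 151 RPKM in P0 controls. Stroma markers without collagens summed to 1473 to 2023 CPM in E18.5 knockouts and 1489 to 1740 CPM in E18.5 controls, and erythroid markers to 1070 to 3085 CPM in E18.5 knockouts and 792 to 1005 CPM in E18.5 controls; their part in the E18.5 values was not tested. With only the libraries whose labels agree, control sample 1-2 is left alone against knockouts 3 and 4, the lone sample is assumed to vary like the other groups, and 14 collagen genes were then called higher, Col1a1 by 2.06 ± 0.18 on the log2 scale.

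**Figure D5:**
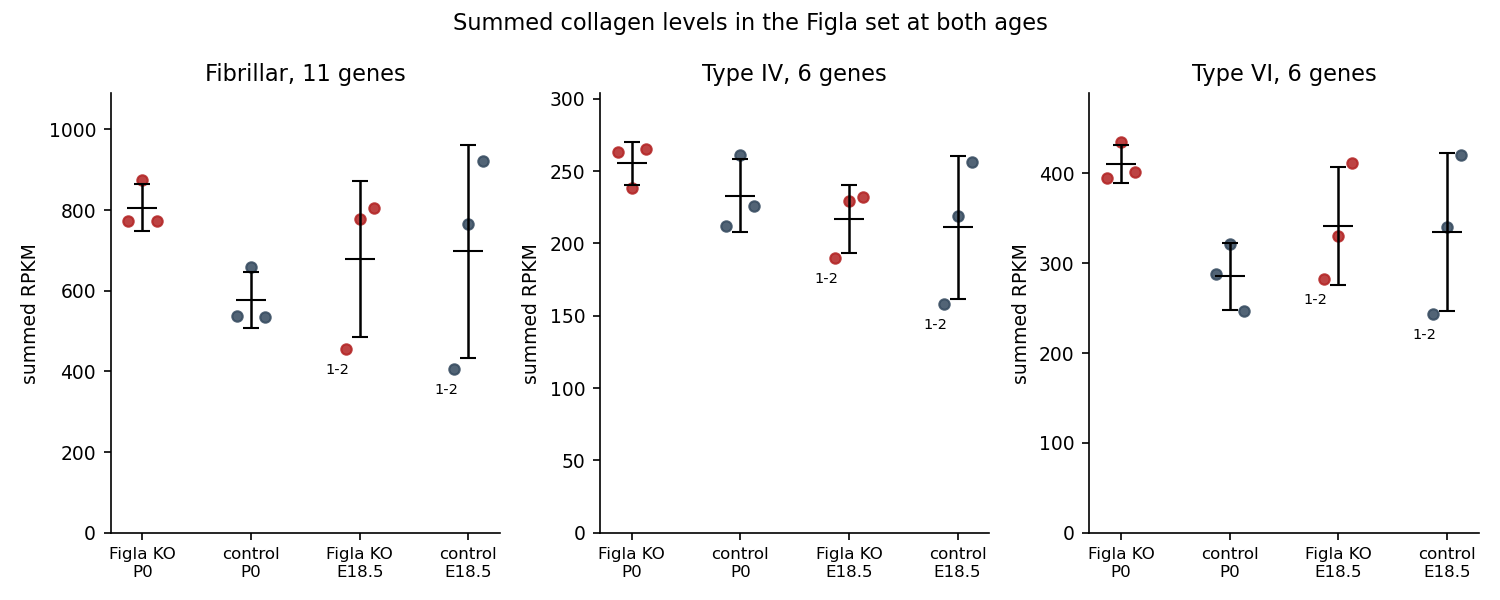
Summed RPKM of fibrillar, type IV and type VI collagen genes in each Figla sample, with knockouts left of controls at each age; black marks give the mean and SD (n = 3), and 1-2 marks the sample summed from near-identical replicates 1 and 2. The P0 knockout points stand above the controls for the fibrillar (772 to 874 against 536 to 658) and type VI genes, and sample 1-2 is the lowest E18.5 point of the fibrillar genes in both genotypes.

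The genotype difference at P0 was not shown to be other than that at E18.5. The test of the difference between ages (interaction term, edgeR, all Figla samples in 1 model) called 0 of 43 collagen genes higher and 0 lower, as it did 0% and 0% of all 18379 genes; DESeq2 called 0 collagen genes too, and so did edgeR with any 1 sample left out. At an unadjusted p below 0.05, Col6a3 (0.81 ± 0.34) and Col5a2 (0.51 ± 0.20) were higher and Col9a3 (-1.38 ± 0.63) lower. Of all genes, 1.72% were higher and 3.6% lower at that unadjusted cutoff. The collagen median of the difference between ages was 0.42, against 0.01 over all genes, and -0.07 with scaling on stroma markers.

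Between ages within a genotype no collagen gene was called either. In P0 against E18.5 controls the test called 0 of 43 in each direction (0% and 0% of 18379 genes), with a median of -0.18, and with 0.23 under scaling on stroma markers. At an unadjusted p below 0.05, Col9a3 was higher at P0 (1.44 ± 0.44, adjusted p = 0.0923, edgeR; called by DESeq2 and with no filter on low counts) and 7 genes were lower (Col4a6, Col6a3, Col11a1, Col11a2, Col20a1, Col25a1 and Col27a1). At that unadjusted cutoff 12.2% of all genes were higher and 11% lower, beside 1 higher and 7 lower of 43 collagens. Col9a3 had 1.78, 2.8 and 5.43 RPKM in P0 controls, against 0.738, 1.02 and 1.98 RPKM in E18.5 controls, with overlap. Without E18.5 control replicate 4, Col9a3 (1.96 ± 0.47, adjusted p = 0.0493, edgeR) and Col18a1 (1.06 ± 0.23, adjusted p = 0.0381, edgeR) were called higher at P0, and without control 3 there were 0 calls. In P0 against E18.5 knockouts the test also called 0 of 43 (0% higher and 0.00544% lower of all genes), with a median of 0.26; at an unadjusted p below 0.05, Col5a3 (1.59) and Col15a1 (0.69) were higher, and Col11a2, Col19a1 and Col20a1 lower, while DESeq2 called 0. Of all genes, 5.11% were higher and 7.51% lower at that unadjusted cutoff in knockouts, so the 2 higher and 3 lower of 43 collagens lie near these shares. Age cannot be told apart from the days on which litters or libraries were made, which the labels do not give.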

How the data were processed

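Whole-ovary RNA was read in 20 libraries, after mRNA was selected from total RNA, per the labels' protocols. The Figla libraries were made with a Nextera kit, which covers whole transcripts and keeps no strand, and the Lhx8 libraries with a QuantSeq 3′ kit. The deposited values are raw counts per gene, made by featureCounts 1.6.0 with the GENCODE M12 annotation and no strand option, per the file headers. The submitters' processing notes name cutadapt and HISAT2 for trimming and alignment, and GRCm38.p5 as the build. Overlapping genes can therefore not be told apart where their exons overlap.

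Of 49585 gene IDs, 49326 matched a symbol in the GENCODE reference. In genes with 50 or more counts, chi-square per degree of freedom was 1.12 between E18.5 control replicates 1 and 2 and 1.32 between E18.5 knockout replicates 1 and 2, against 6.62 to 62.3 in the other 22 pairs within a group, so each of these 2 pairs was summed. Counts were tested with edgeR 4.0.16 (R 4.3.3): TMM scaling, genes kept by filterByExpr (minimum count 10, minimum total 15), a quasi-likelihood F test, and Benjamini-Hochberg adjustment over all genes tested, with calls at an adjusted p below 0.05. The test was tried on simulated counts with known changes. No model holds both kits. The ages were compared in 1 model of all Figla samples. The members and lists were chosen with earlier results of these data known. Named are all genes called, the 10 highest in controls, the Col4a1 and Col4a2 pair, and at most 4 called genes per partner list. Alternatives were RLE scaling, DESeq2 1.42.0, no filter, scaling on stroma markers, other sample sets and label readings. Promoter sequences come from RefSeq (GRCm38.p6).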

Additional observations from a re-analysis of the deposited data

Results flagged for a closer look

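Col9a3, which gives a chain of the FACIT collagen type IX, was called in both knockouts at P0 with opposite signs, and the samples of each group did not overlap with those of the other. Its log2 fold change was -1.52 ± 0.36 in Figla knockouts, with 1.04, 1.24 and 1.19 RPKM in knockouts against 1.78, 2.8 and 5.43 RPKM in controls. The Figla call held under 7 of 12 alternatives (title grouping aside), with adjusted p up to 0.173 (edgeR) and log2 fold changes of -1.98 to -0.91, and it was lost without any 1 of the 3 knockout libraries. In Lhx8 knockouts it was 2.00 ± 0.36, with 5.64, 6.42 and 6.43 CPM in knockouts against 1.25, 2.21 and 1.12 CPM in controls, and it was called under each of 11 alternatives. The difference between the sets was not tested, because 1 set counts whole transcripts and the other their 3′ ends. Grouping the Lhx8 libraries by title instead of library name would turn the sign of the Lhx8 value.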

How the results depend on the processing

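With RLE scaling, DESeq2 or no filter on low counts, the number of collagen genes called stayed within 1.5 times in both P0 knockout comparisons, and at 0 for the Figla knockout at E18.5. In the Figla set at P0 the 18 calls became 7 with scaling on stroma markers (4 of them among the 18), 3 in 1 model of all Figla samples, 0 with libraries grouped by title and 6 with agreeing labels only, and leaving out 1 sample gave 7 to 21. At E18.5 the 0 calls became 12 by title and 14 with agreeing labels. In the Lhx8 set the 15 calls became 3 with scaling on stroma markers, and leaving out 1 sample gave 3 to 14. With the replicate number as a block they became 6; deviations of same-numbered Lhx8 libraries correlated at -0.15, 0.05 and 0.04, so the numbers were not taken as pairs, and the Figla numbers follow only the order of accession, so no fit blocked on them was made and whether they pair E18.5 samples was not tested. The interaction gave 2 calls by title and 1 with agreeing labels. For P0 against E18.5 controls, 0 became 1 without a filter, 1 with DESeq2, 5 with scaling on stroma markers, 1 with each E18.5 library as its own sample, 10 by title and 9 with agreeing labels, and leaving out 1 sample gave 0 to 2 (2 without E18.5 control replicate 4). For P0 against E18.5 knockouts, 0 became 1 without a filter. With scaling on stroma markers the Figla values at P0 changed sign for Col8a2 (-0.03) and Col1a2 (-0.02); of the other values of called genes outside the single-sample omissions and the grouping by title (which kept none of the 18), 120 kept and 61 lost the call. The causes were not tested. With 3 samples in each group, differences in genes with few counts are the least precise.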
